A study of Mus musculus with 7 samples.

Results

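Solute carriers are membrane proteins that move amino acids, sugars, metals, ions, nucleotides and cofactors across the plasma membrane and the membranes of mitochondria, Golgi, endoplasmic reticulum and lysosomes. Of 248 genes in the table whose symbol has the form Slc, number, a, number, 112 were selected because their normalised value was at least 1 in at least 3 of the 7 samples. The members were thus selected on measured levels, and the same filter left 8326 genes of the whole table of 21176. By name and known substrate, 109 of the 112 were transporters and fell into 12 classes. The other 3, Slc9a3r2, Slc4a1ap and Slc7a6os, are proteins named after a transporter.

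The RNA came from follicular dendritic cells (FDCs), which are stromal, sit in B-cell follicles and retain antigen there. The cells had been sorted from popliteal lymph nodes, and their cDNA was amplified at full length before sequencing. The wild-type group (WT) had 4 samples and the group without Ngfr (Ngfr KO), the gene of the p75 neurotrophin receptor, had 3. All mice were non-immunized males, 8 to 12 weeks old, and each sample was a pool of nodes from several animals. The labels name neither a strain nor the allele, and no cell type to which the loss of Ngfr was limited. The series calls the samples independent, and p-values measure the spread between these pools.

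Most carriers work as exchangers or as cotransporters driven by sodium or proton gradients. Some need a second protein: the Slc7 light chains pair with the heavy chain Slc3a2 to reach the cell surface, and the monocarboxylate carriers Slc16a1 and Slc16a3 pair with Bsg. The Slc25 family resides largely in the inner mitochondrial membrane, and the Slc35 family imports nucleotide sugars into the Golgi for glycosylation.

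Depth was 17244925 to 18873542 reads per WT library and 20741770 to 21538400 per Ngfr KO library, and a value of 1 stood for 230 to 295 reads. A member had a median of 520.5 reads in a sample and at least 14. Ngfr itself had values of 0.377, 0.677, 1.30 and 1.14 in WT and 0.305, 0.353 and 0.184 in Ngfr KO; every Ngfr KO value lay below every WT value (log2 change -0.52, SE 0.18, limma adjusted p = 0.0431). The labelled cell type was checked against its markers: the FDC genes Clu, Cxcl13, Mfge8 and Cr2 were detected in all samples, with Clu at 1122 ± 366 in WT (n = 4, SD) and 2992 ± 184 in Ngfr KO (n = 3, SD). The summed value of 15 FDC markers was 1841 to 5158 in WT; in Ngfr KO it was 8032 to 10546. It was lowest in WT replicate 1. Blood endothelial markers summed to 45.2 to 77.8 in Ngfr KO against 173 to 230 in WT, and lymphatic endothelial markers to 22.3 to 38.1 against 46.8 to 115. Markers of fibroblastic reticular cells summed to 236 to 339 in Ngfr KO against 72.2 to 149 in WT, but the sum was mostly Dcn and Ccl19. Of 6 of these markers tested, 3 rose (Dcn, Ccl19 and Pdgfra), while Col1a2 (log2 change 0.01) and Col3a1 (0.01) did not pass. The sums of other lists overlapped between groups. B-cell markers summed to 17.4 to 37.3 over all samples, T-cell markers to 2.63 to 10.9 and pericyte markers to 19.9 to 71.1. Plasma cell markers summed to 6.95 to 45.7 (highest in WT replicate 3) and macrophage markers to 3.25 to 30.7 (highest in Ngfr KO replicate 3). Single genes of these lists rose and none fell. They were 2 of 4 pericyte markers tested (Des, log2 change 1.42, and Myh11, 0.79) and 1 of 5 B-cell markers (Ms4a1, 0.79). The others were 1 of 3 plasma cell markers (Xbp1, 0.88) and the 1 macrophage marker tested (Lyz2, 1.70). The 1 adipocyte and 1 erythroid marker in the table stayed at or below 0.0506. In bulk RNA, fewer cells of a type and less RNA per cell cannot be told apart, and the part of these shifts in the carrier results below was not tested.

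**Figure D1:**
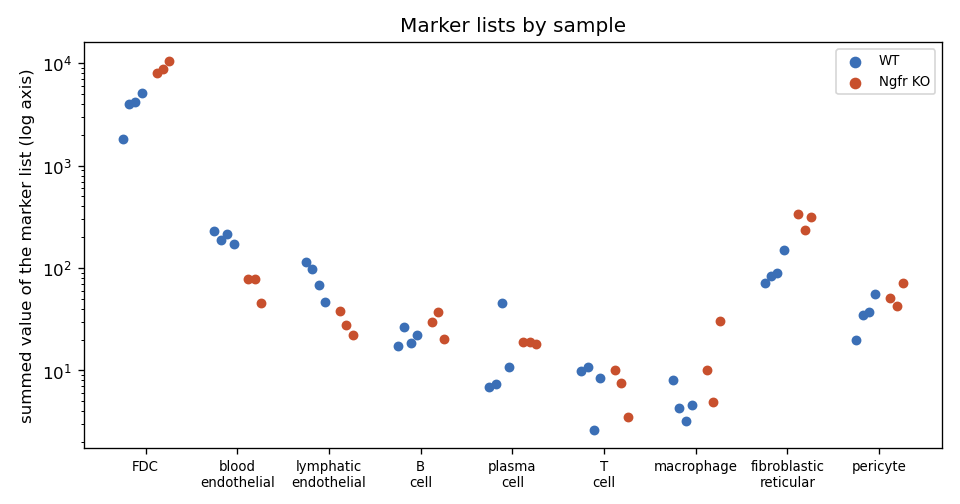
Summed value of each marker list (log axis) in the 4 WT and 3 Ngfr KO samples, 1 point per sample. The summed FDC markers were higher in every Ngfr KO sample than in every WT sample and the summed endothelial markers lower; the higher fibroblastic reticular sum was mostly Dcn and Ccl19.

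In Ngfr KO, 32 of the 112 members rose and 14 fell (limma on log2(value + 1), Benjamini-Hochberg adjusted p under 0.05 over all 8326 genes). That is 28.6% higher and 12.5% lower, beside 18.3% and 15.8% of all genes tested, and 41.1% called in either direction beside 34.2%. In 54 members (48.2%) the groups did not overlap, against 40.9% of all genes tested. The median log2 change was 0.19 over the members and 0.02 over all genes tested. Except where edgeR is named, a log2 change is a difference of log2(value + 1), which understates the change of members with low values.

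The counts rested in part on the filter. Of the 14 members that fell, 8 reached a value of 1 in WT samples only (Slc45a3, Slc4a4, Slc16a12, Slc9a3r2, Slc12a7, Slc25a23, Slc25a28 and Slc22a5), and of the 32 that rose, 2 did so in Ngfr KO samples only (Slc7a4 and Slc16a6). A member that passed through 1 group alone had to differ, so these calls were favoured by the selection. Among other members that rose, Slc2a6, Slc4a8, Slc22a4 and Slc39a6 reached 1 in fewer than 3 WT samples. They passed only with their Ngfr KO values, so their rises were favoured as well. Likewise Slc43a2 and Slc30a1, which fell, reached 1 in fewer than 3 Ngfr KO samples and passed only with their WT values. Among the 62 members with a value of at least 1 in every sample, 19 were called higher and 2 lower, 33.9% in all beside 31.9% of the 5828 genes under that filter. By direction this was 30.6% higher and 3.23% lower, beside 18.8% and 13.2%. Without Ngfr KO replicate 2, 29 members were called, 19 of them higher, and without Ngfr KO replicate 1 only 7 were called lower. Without WT replicate 1, the sample with the lowest FDC markers, 23 were called higher and 10 lower. That sample had the lowest WT value in 20 of the 32 members that rose and the highest WT value in 8 of the 14 that fell. With edgeR's quasi-likelihood test on the recovered reads, 38 members were called, 27 higher and 11 lower, which is 33.9% beside 24.9% of the same 8326 genes. Over all genes that edgeR tested, 43 of 216 Slc genes (19.9%) were called beside 15.2% of 16751. At the threshold, Slc22a5 and Slc25a28 were just inside, and Slc2a8 and Slc25a29 just outside, the value that had to reach 1 being 0.923 and 0.905.

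**Figure D2:**
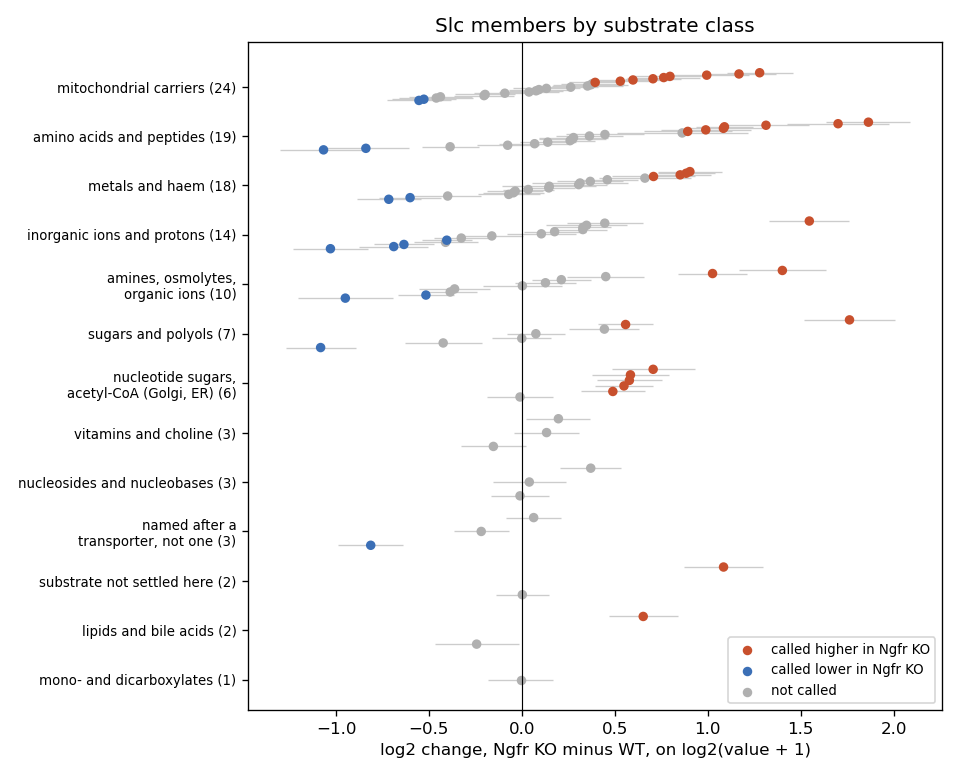
Log2 change from WT to Ngfr KO of each of the 112 members, by class with the number of members in brackets; lines are the standard error. Under limma 37.5% of the mitochondrial, 36.8% of the amino acid, 83.3% of the nucleotide sugar and 22.2% of the metal members rose. Of all genes tested 18.3% rose. Among the inorganic ion members 28.6% fell, beside 15.8% of all genes tested. With edgeR 2 of the 6 nucleotide sugar members were called.

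Levels were compared between genes only per kb of exon. By mean value per kb, Slc25a5, an ADP/ATP carrier of the inner mitochondrial membrane, was the highest member at 17.3. It was followed by its relative Slc25a4 at 7.64, the amino acid carrier Slc36a2 at 6.43, the sugar carrier Slc50a1 at 6.19 and the purine nucleobase carrier Slc43a3 at 4.64. Slc36a2 was 7th by WT level and 2nd by Ngfr KO level. Slc25a4 and Slc25a5 have near-identical gene copies, so their read assignment is uncertain.

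The members together took 0.533% ± 0.018 of the reads in WT (n = 4, SD) and 0.665% ± 0.085 in Ngfr KO (n = 3, SD). For this share the lowest Ngfr KO sample was above the highest WT sample. The amino acid class took 0.132% ± 0.011 of the reads in WT (n = 4, SD) and 0.199% ± 0.027 in Ngfr KO (n = 3, SD), and the mitochondrial class 0.151% ± 0.013 and 0.189% ± 0.019.

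**Figure D3:**
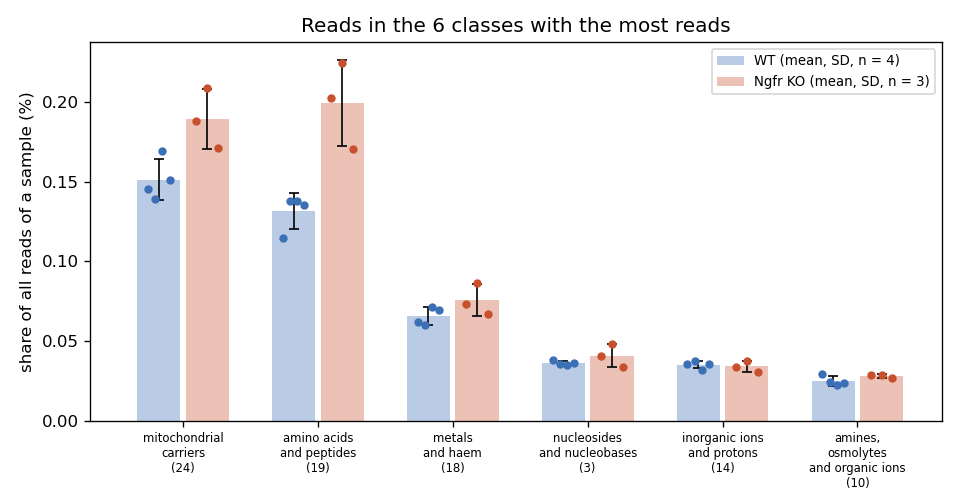
Share of all reads of a sample that fell on each of the 6 classes with the most reads; bars are means, error bars SD, points samples, with the number of members in brackets. The amino acid and mitochondrial classes took more reads in each Ngfr KO sample than in each WT sample. For the mitochondrial class the gap was narrow, from 0.169% in WT replicate 3 to 0.171% in Ngfr KO replicate 3. The metal, nucleoside, inorganic ion and amine classes overlapped.

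Among amino acid and peptide carriers, 7 of 19 members rose (36.8%) and 2 fell (10.5%), beside 18.3% and 15.8% of all genes tested. The median log2 change of the class was 0.36. The first by log2(value + 1) change was Slc7a6 (ENSMUSG00000031904, plus strand of chromosome 8), the light chain of an exchanger of cationic for neutral amino acids. Its RefSeq promoter window, 250 bases before to 50 after the start (GRCm38.p6, chr8:106168604-106168903, plus strand), is shown because Slc7a6 had the largest log2(value + 1) change of the members. By ratio of means Slc2a6, Slc4a8 and Slc7a4 rose more, and the fall of Slc4a4 was also larger. Capitals mark ACGTG, the core of the hypoxia response element.
Slc7a6: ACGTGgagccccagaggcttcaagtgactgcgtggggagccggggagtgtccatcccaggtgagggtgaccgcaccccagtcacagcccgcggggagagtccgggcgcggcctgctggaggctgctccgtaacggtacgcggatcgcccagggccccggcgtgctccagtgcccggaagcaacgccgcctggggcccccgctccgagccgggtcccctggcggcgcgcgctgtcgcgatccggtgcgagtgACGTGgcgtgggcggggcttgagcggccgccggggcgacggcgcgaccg

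Slc7a6 had values of 1.48, 1.95, 3.72 and 3.10 in WT and 14.3, 9.93 and 10.8 in Ngfr KO. There was no overlap, and the lowest Ngfr KO value was above the highest WT value by more than the whole WT range (log2 change 1.86, SE 0.23, limma adjusted p = 0.00033). Slc7a7, the other light chain of this exchange system, had values of 5.51, 5.39, 6.56 and 8.15 in WT and 12.6, 19.8 and 12.2 in Ngfr KO. It rose as well (log2 change 1.08, SE 0.21, limma adjusted p = 0.00259), with Ngfr KO replicate 2 the highest sample. Their shared heavy chain Slc3a2 had values of 13.6, 12.6, 15.7 and 13.1 in WT and 16.6, 21.1 and 13.5 in Ngfr KO, and the groups overlapped (log2 change 0.28, SE 0.19, limma adjusted p = 0.259).

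The other partners of Slc3a2 did not follow this pattern of values. The cystine-glutamate exchanger light chain Slc7a11 averaged 1.69 ± 0.18 in WT (n = 4, SD) and 1.08 ± 0.32 in Ngfr KO (n = 3, SD), and did not pass the test (log2 change -0.39, SE 0.15, limma adjusted p = 0.0672). Slc7a5 and Slc7a8, light chains for large neutral amino acids, stayed below the filter, at no more than 0.192 and 0.0136 in any sample.

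Slc36a2 is a proton-coupled carrier of small amino acids such as glycine and proline. It had values of 5.02, 12.6, 11.9 and 12.5 in WT and 36.4, 39.6 and 28.4 in Ngfr KO. WT replicate 1 was low within WT, and all Ngfr KO samples were above all WT samples (log2 change 1.70, SE 0.28, limma adjusted p = 0.0013). Slc38a1, a sodium-coupled carrier of glutamine, had values of 0.872, 1.92, 1.69 and 1.71 in WT and 4.45, 8.19 and 3.85 in Ngfr KO (log2 change 1.31, SE 0.23, limma adjusted p = 0.00169). Its groups did not overlap, and the highest value was in Ngfr KO replicate 2.

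Further members rose in this class. Slc7a4, related to the cationic amino acid carriers, went from a mean of 0.439 to 2.07 and reached a value of 1 only in Ngfr KO. Slc1a3, a glutamate carrier, rose by a log2 change of 0.99, and the lysosomal histidine and peptide carrier Slc15a3 by 0.89. Slc15a3 lost its call without Ngfr KO replicate 3, and 28.1% of its exon bases overlap Tmem132a.

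Both members that fell carry neutral amino acids. Slc43a2 had values of 6.33, 4.44, 3.38 and 2.31 in WT and 1.64, 1.44 and 0.993 in Ngfr KO, with no overlap (log2 change -1.07, SE 0.24, limma adjusted p = 0.00558). Slc38a4 had values of 13.2, 9.59, 14.9 and 6.85 in WT and 5.30, 6.62 and 4.83 in Ngfr KO. The gap between WT replicate 4 and Ngfr KO replicate 2 was small (log2 change -0.84, SE 0.23, limma adjusted p = 0.0168), and without Ngfr KO replicate 1 the change was -0.81 and no longer passed.

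**Figure D4:**
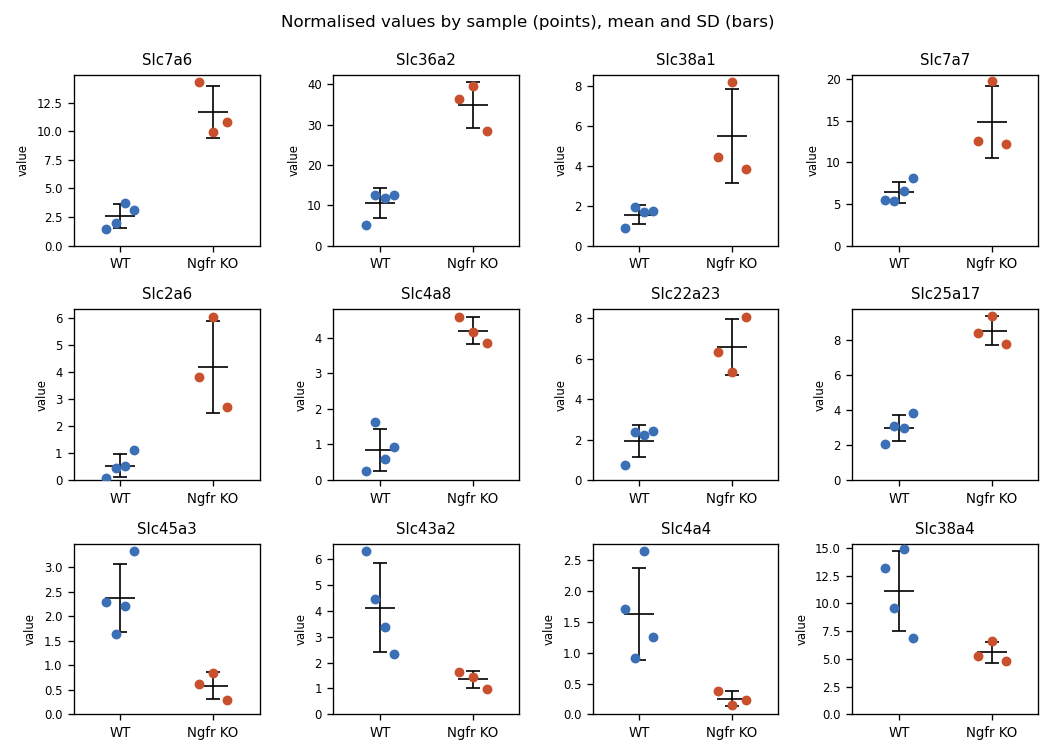
Normalised values of 12 members in each sample (points), with the group mean and SD (bars), n = 4 WT and n = 3 Ngfr KO. The upper 8 panels hold members that rose and the lower 4 members that fell. In none of the 12 do the groups overlap. Except for Slc7a7, a partner of Slc3a2, they were picked among called members without overlap, so their separation follows from the choice. Slc45a3 and Slc4a4 passed the filter only through WT. Slc2a6 and Slc4a8 passed it only with their Ngfr KO values, and Slc43a2 only with its WT values.

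Mitochondrial and related carriers of the Slc25 family gave 9 rises (37.5%) and 2 falls (8.33%) among 24 members, beside 18.3% and 15.8% of all genes tested. Slc25a17, which carries cofactors such as coenzyme A across the peroxisomal membrane, had values of 2.03, 3.06, 2.94 and 3.82 in WT and 8.40, 9.37 and 7.74 in Ngfr KO. Each Ngfr KO value was above all WT values (log2 change 1.28, SE 0.18, limma adjusted p = 0.000603). Slc25a35, whose substrate is not established, had values of 1.11, 1.84, 1.03 and 2.41 in WT and 4.26, 5.81 and 4.18 in Ngfr KO (log2 change 1.17, SE 0.20, limma adjusted p = 0.00162). Of its exon bases, 31.3% overlap Rangrf, and reads of overlapping genes cannot be told apart if strand was not used in counting.

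Slc25a39, needed for glutathione import into mitochondria, had values of 2.35, 2.85, 4.53 and 5.77 in WT and 8.80, 9.0 and 7.31 in Ngfr KO. There was no overlap, although the WT samples themselves were far apart (log2 change 0.99, SE 0.23, limma adjusted p = 0.00697). The smaller rises included carriers of metabolites of the citric acid cycle: the oxoglutarate carrier Slc25a11 (log2 change 0.80), the citrate carrier Slc25a1 (0.76) and the dicarboxylate carrier Slc25a10 (0.53). All 3 lost their call without Ngfr KO replicate 2, and Slc25a10 also without WT replicate 1 or WT replicate 2. Slc25a14, related to the uncoupling proteins, had the smallest rise called (0.39), lost in 10 of 16 alternatives, among them edgeR and each omission of a sample other than WT replicate 3.

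The abundant Slc25a5 had values of 20.1, 22.8, 30.9 and 19.6 in WT and 36.3, 33.5 and 36.1 in Ngfr KO. The groups were separate (log2 change 0.60, SE 0.20, limma adjusted p = 0.035), but the call was lost with edgeR and without any 1 of Ngfr KO replicate 1, Ngfr KO replicate 2, WT replicate 1, WT replicate 2 or WT replicate 4, where the log2 change was 0.52 to 0.63. Its relative Slc25a4 did not pass (0.37, limma adjusted p = 0.166), nor did the phosphate carrier Slc25a3 (0.13, limma adjusted p = 0.586). The members that fell were Slc25a23, an exchanger of ATP-magnesium for phosphate (-0.55), and Slc25a28, the iron carrier mitoferrin-2. Slc25a28 had values of 1.57, 1.47, 1.00 and 0.763 in WT and 0.384, 0.393 and 0.781 in Ngfr KO. The groups overlapped in 1 sample (log2 change -0.53, SE 0.17, limma adjusted p = 0.0335), and both calls were lost with edgeR and without either of Ngfr KO replicates 1 and 2 or WT replicates 1 and 2, that of Slc25a23 also without WT replicate 4.

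Among carriers of metals and haem, 4 of 18 members rose (22.2%) and 2 fell (11.1%), beside 18.3% and 15.8% of all genes tested. In all 33.3% were called beside 34.2%. All 6 belong to the zinc families Slc30 and Slc39, which made up 13 of the 18 members. Of these 13, 30.8% rose and 15.4% fell, 46.2% called in all. Slc30a6 and Slc30a7 bring zinc into the Golgi. Slc30a7 had values of 3.39, 3.71, 3.65 and 3.73 in WT and 7.67, 8.86 and 5.75 in Ngfr KO (log2 change 0.85, SE 0.16, limma adjusted p = 0.00284). WT values were nearly equal, and the lowest Ngfr KO sample was well above them. Slc30a6 had values of 1.59, 1.76, 2.57 and 1.54 in WT and 4.15, 5.27 and 3.62 in Ngfr KO (log2 change 0.90, SE 0.17, limma adjusted p = 0.00279). Slc39a6, which takes up zinc at the cell surface, had values of 0.771, 1.32, 1.35 and 0.988 in WT and 3.08, 2.58 and 2.93 in Ngfr KO, with no overlap (log2 change 0.88, SE 0.15, limma adjusted p = 0.00166). Slc39a11 also rose (0.71), but its call was lost with edgeR and DESeq2 and without Ngfr KO replicate 2 or 3 or WT replicate 1 or 2.

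Slc30a1 exports zinc from the cell, and its promoter is a textbook target of the metal-responsive factor Mtf1. Its RefSeq window (GRCm38.p6, chr1:191906531-191906830, plus strand) is shown with the metal response element TGCNCNC in capitals, both matches being on the complementary strand. The motif is common: 51% of all 32851 windows of this length held it on either strand.
Slc30a1: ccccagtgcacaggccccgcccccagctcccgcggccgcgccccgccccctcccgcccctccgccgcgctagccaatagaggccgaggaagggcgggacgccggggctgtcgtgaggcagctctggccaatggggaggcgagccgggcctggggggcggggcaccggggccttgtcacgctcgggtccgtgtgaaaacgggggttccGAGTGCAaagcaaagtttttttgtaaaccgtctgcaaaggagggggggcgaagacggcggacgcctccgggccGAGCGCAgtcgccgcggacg

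Slc30a1 had values of 2.50, 1.80, 2.07 and 2.17 in WT and 0.609, 0.746 and 1.45 in Ngfr KO. It fell without overlap of the groups (log2 change -0.72, SE 0.17, limma adjusted p = 0.00829), and Ngfr KO replicate 3 was the nearest to WT. Slc39a4, a zinc importer, had values of 6.29, 6.10, 8.84 and 6.58 in WT and 4.23, 3.86 and 4.52 in Ngfr KO. It also fell (log2 change -0.60, SE 0.16, limma adjusted p = 0.016), but not past the threshold without Ngfr KO replicate 1 (-0.61) or Ngfr KO replicate 2 (-0.55). The copper carrier Slc31a2, the highest of the class per kb, had a range of 3.62 to 7.62 in WT against 3.88 to 8.51 in Ngfr KO and did not pass (0.31, limma adjusted p = 0.36).

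Carriers of nucleotide sugars and acetyl-CoA into the Golgi and endoplasmic reticulum were 6 members. Under limma 5 rose (83.3%) and none fell, beside 18.3% and 15.8% of all genes tested. With edgeR 2 of the 6 were called. Promoter windows of Slc33a1, the acetyl-CoA carrier of the endoplasmic reticulum, and Slc35a5 are shown because both hold the E-box palindrome CACGTG, in capitals, which also contains the ACGTG core. Both are on the minus strand of GRCm38.p6, at chr3:63964684-63964983 and chr16:45158624-45158923. CACGTG occurred in 7.15% of all windows.
Slc33a1: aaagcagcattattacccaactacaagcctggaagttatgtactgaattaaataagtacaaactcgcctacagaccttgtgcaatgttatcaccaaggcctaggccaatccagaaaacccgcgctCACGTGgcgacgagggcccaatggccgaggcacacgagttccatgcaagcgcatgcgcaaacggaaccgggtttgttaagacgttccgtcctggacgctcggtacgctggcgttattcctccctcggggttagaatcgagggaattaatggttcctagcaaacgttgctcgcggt
Slc35a5: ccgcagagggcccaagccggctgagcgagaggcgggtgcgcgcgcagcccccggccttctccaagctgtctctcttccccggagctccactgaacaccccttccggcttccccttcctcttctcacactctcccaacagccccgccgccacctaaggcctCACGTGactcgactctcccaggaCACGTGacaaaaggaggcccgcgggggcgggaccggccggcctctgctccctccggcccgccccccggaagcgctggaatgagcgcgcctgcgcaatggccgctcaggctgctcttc

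Slc33a1 had values of 1.98, 2.27, 1.79 and 1.85 in WT and 2.74, 4.14 and 3.26 in Ngfr KO (log2 change 0.55, SE 0.16, limma adjusted p = 0.0189). Slc35a5 had values of 2.03, 2.54, 2.47 and 2.41 in WT and 4.05, 5.28 and 2.96 in Ngfr KO (log2 change 0.58, SE 0.17, limma adjusted p = 0.0237). Both were separate between groups with Ngfr KO replicate 2 highest, and without that sample neither passed, at 0.43 and 0.41; Slc35a5 also did not pass without Ngfr KO replicate 1 (0.57) or WT replicate 1 (0.53). Of the exon bases of Slc33a1, 32% overlap Gm26850.

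The UDP-galactose carrier Slc35a2 had values of 1.17, 1.34, 2.17 and 2.03 in WT and 2.52, 3.14 and 2.49 in Ngfr KO (log2 change 0.49, SE 0.17, limma adjusted p = 0.0449). The CMP-sialic acid carrier Slc35a1, the highest of the class per kb, had values of 4.24, 4.17, 8.33 and 3.60 in WT and 8.69, 8.60 and 8.29 in Ngfr KO. WT replicate 3 lay within the Ngfr KO range, so the groups overlapped despite the call (log2 change 0.71, SE 0.22, limma adjusted p = 0.0293). Neither was called by edgeR. Slc35a2 was not called without any 1 of the 3 Ngfr KO samples, WT replicate 1 or WT replicate 2 (0.39 to 0.53), and Slc35a1 was called in only 1 of the 7 fits that left out a sample, that without WT replicate 3 (0.59 to 0.72 in the other 6). Slc35a4 was called higher with overlapping groups (0.58) and was lost with edgeR and without Ngfr KO replicate 1 or 2 or WT replicate 1, 2 or 3. Slc35a3, the carrier of UDP-N-acetylglucosamine, had the smallest change of the class (-0.01). Of 8 relatives in the Slc35b to Slc35g subgroups, 3 rose (37.5%, beside 18.3% of all genes tested) and none fell. The 3 were Slc35g1 (1.01), Slc35b3 (0.67) and Slc35b1 (0.63).

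Carriers of inorganic ions and protons gave 4 falls (28.6%, beside 15.8% of all genes tested) and 1 rise (7.14%, beside 18.3%) among 14 members. Slc4a4 and Slc12a7 passed the filter only through WT, the group where they were high, so their falls were favoured by the selection. Slc4a8, a sodium-driven chloride-bicarbonate exchanger, had values of 0.265, 1.62, 0.578 and 0.919 in WT and 4.59, 4.17 and 3.85 in Ngfr KO. Ngfr KO was uniform and above WT throughout (log2 change 1.55, SE 0.22, limma adjusted p = 0.000617). Only 1 WT value of Slc4a8 reached 1, so it passed the filter only with its Ngfr KO values and its rise was favoured by the selection. The sodium-bicarbonate cotransporter Slc4a4, of the same family, had values of 1.71, 0.921, 2.65 and 1.25 in WT and 0.381, 0.149 and 0.236 in Ngfr KO. It moved the opposite way, again with no overlap (log2 change -1.03, SE 0.20, limma adjusted p = 0.00303).

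The potassium-chloride cotransporter Slc12a7, which takes part in cell volume control, fell without overlap of the groups. It had values of 1.95, 1.28, 0.952 and 1.25 in WT and 0.602, 0.393 and 0.517 in Ngfr KO (log2 change -0.63, SE 0.16, limma adjusted p = 0.0113). The sulfate carrier Slc26a2 had the smallest fall called (-0.40), lost in 11 of 16 alternatives, among them edgeR and each omission of a sample other than WT replicate 3. The phosphate carrier Slc20a1, the highest of the class per kb, averaged 5.19 ± 1.36 in WT (n = 4, SD) and 7.36 ± 1.54 in Ngfr KO (n = 3, SD) and did not pass (0.45, limma adjusted p = 0.108). Beside these falls, blood endothelial markers were lower in Ngfr KO for 13 of 13 genes tested, with Cdh5 at 4.29 to 7.11 in Ngfr KO against 13.4 to 24.9 in WT; the part of this shift was not tested.

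Among sugar and polyol carriers, 2 of 7 members rose (28.6%) and 1 fell (14.3%), beside 18.3% and 15.8% of all genes tested. Slc2a6, a glucose transporter family member of lysosomes, had values of 0.0545, 0.423, 0.509 and 1.09 in WT and 3.82, 6.01 and 2.70 in Ngfr KO. Its mean was 8.05 times higher in Ngfr KO, the largest ratio of means among the members (log2 change 1.76, SE 0.25, limma adjusted p = 0.000617). Only 1 WT value of Slc2a6 reached 1, so it passed the filter only with its Ngfr KO values and its rise was favoured by the selection. Slc2a1, the widespread glucose transporter GLUT1, had values of 1.44, 1.18, 1.56 and 1.85 in WT and 2.60, 2.93 and 2.50 in Ngfr KO. It rose without overlap (log2 change 0.56, SE 0.15, limma adjusted p = 0.0136), and without Ngfr KO replicate 2 the change of 0.51 did not pass. Slc45a3, a member of the sucrose carrier family, had values of 2.30, 1.65, 2.22 and 3.33 in WT and 0.609, 0.845 and 0.300 in Ngfr KO. It fell without overlap (log2 change -1.08, SE 0.19, limma adjusted p = 0.00165), but it had passed the filter only through WT. Its ratio of means, 4.06 times higher in WT, was below that of Slc4a4, 6.39 times. The more abundant Slc50a1 had a range of 7.59 to 9.82 in WT against 8.98 to 10.1 in Ngfr KO and did not pass (0.07, limma adjusted p = 0.728).

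Carriers of amines, osmolytes and organic ions gave 2 rises and 2 falls among 10 members. At 20% each, these shares were near the 18.3% and 15.8% of all genes tested. Slc22a23, an organic ion carrier family member without an established substrate, had values of 0.755, 2.38, 2.21 and 2.41 in WT and 6.32, 5.33 and 8.08 in Ngfr KO (log2 change 1.40, SE 0.24, limma adjusted p = 0.00146). Slc22a4 and Slc22a5 lie near each other on chromosome 11 and moved in opposite directions. Slc22a4, the ergothioneine carrier, had values of 0.852, 1.19, 0.661 and 1.64 in WT and 3.10, 3.97 and 2.58 in Ngfr KO (log2 change 1.03, SE 0.19, limma adjusted p = 0.00207). Slc22a5, the carnitine carrier, had values of 1.36, 1.03, 1.01 and 0.671 in WT and 0.377, 0.309 and 0.521 in Ngfr KO (log2 change -0.52, SE 0.15, limma adjusted p = 0.0222). Neither gene overlapped between groups, but the fall of Slc22a5 did not pass without Ngfr KO replicate 1, Ngfr KO replicate 2, WT replicate 1 or WT replicate 2 (-0.44 to -0.51). The creatine carrier Slc16a12 had values of 3.91, 1.92, 1.78 and 0.931 in WT and 0.733, 0.634 and 0.272 in Ngfr KO. It fell by 0.95 on the log2 scale (SE 0.26, limma adjusted p = 0.015) and did not pass without Ngfr KO replicate 3 (-0.82).

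The remaining classes were small. Slc16a1, a lactate and pyruvate carrier, had values of 9.37, 5.98, 5.80 and 7.20 in WT and 7.02, 6.91 and 6.85 in Ngfr KO, with the Ngfr KO values inside the WT range (log2 change -0.01, SE 0.18, limma adjusted p = 0.978; 0.04 with edgeR). Slc16a3 stayed below the filter, at no more than 0.191. Their chaperone Bsg averaged 19.6 ± 2.69 in WT (n = 4, SD) and 28.9 ± 4.59 in Ngfr KO (n = 3, SD) and rose (log2 change 0.53, SE 0.19, limma adjusted p = 0.0454), though not with edgeR (edgeR adjusted p = 0.0531). None of the 3 carriers of nucleosides and nucleobases passed. Slc43a3 had values of 19.6, 18.9, 18.2 and 16.6 in WT and 23.9, 25.3 and 22.5 in Ngfr KO, separate but not called (0.37, limma adjusted p = 0.095). None of the 3 carriers of vitamins and choline passed, the choline carrier Slc44a1 averaging 2.94 ± 0.33 in WT (n = 4, SD) and 3.38 ± 1.01 in Ngfr KO (n = 3, SD).

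Slc10a3, of the bile acid carrier family, had values of 0.887, 1.17, 1.76 and 1.72 in WT and 2.81, 3.40 and 2.02 in Ngfr KO (log2 change 0.65, SE 0.19, limma adjusted p = 0.0189). The call was lost without any 1 of Ngfr KO replicates 1 and 2 and WT replicates 1 and 2 (0.53 to 0.63). Its relative Slc10a6, a carrier of sulfated steroids, did not pass (-0.24, limma adjusted p = 0.418). Slc16a6 had values of 0.230, 0.928, 0.404 and 0.664 in WT and 1.64, 3.58 and 1.85 in Ngfr KO and rose without overlap (log2 change 1.08, SE 0.21, limma adjusted p = 0.00315); 23.5% of its exon bases overlap other genes. Slc16a9 did not change past the test (0.00, limma adjusted p = 0.993). The scaffold protein Slc9a3r2, not a transporter, had values of 1.37, 1.13, 2.15 and 2.36 in WT and 0.548, 0.594 and 0.476 in Ngfr KO and fell (log2 change -0.81, SE 0.18, limma adjusted p = 0.00505).

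**Figure D5:**
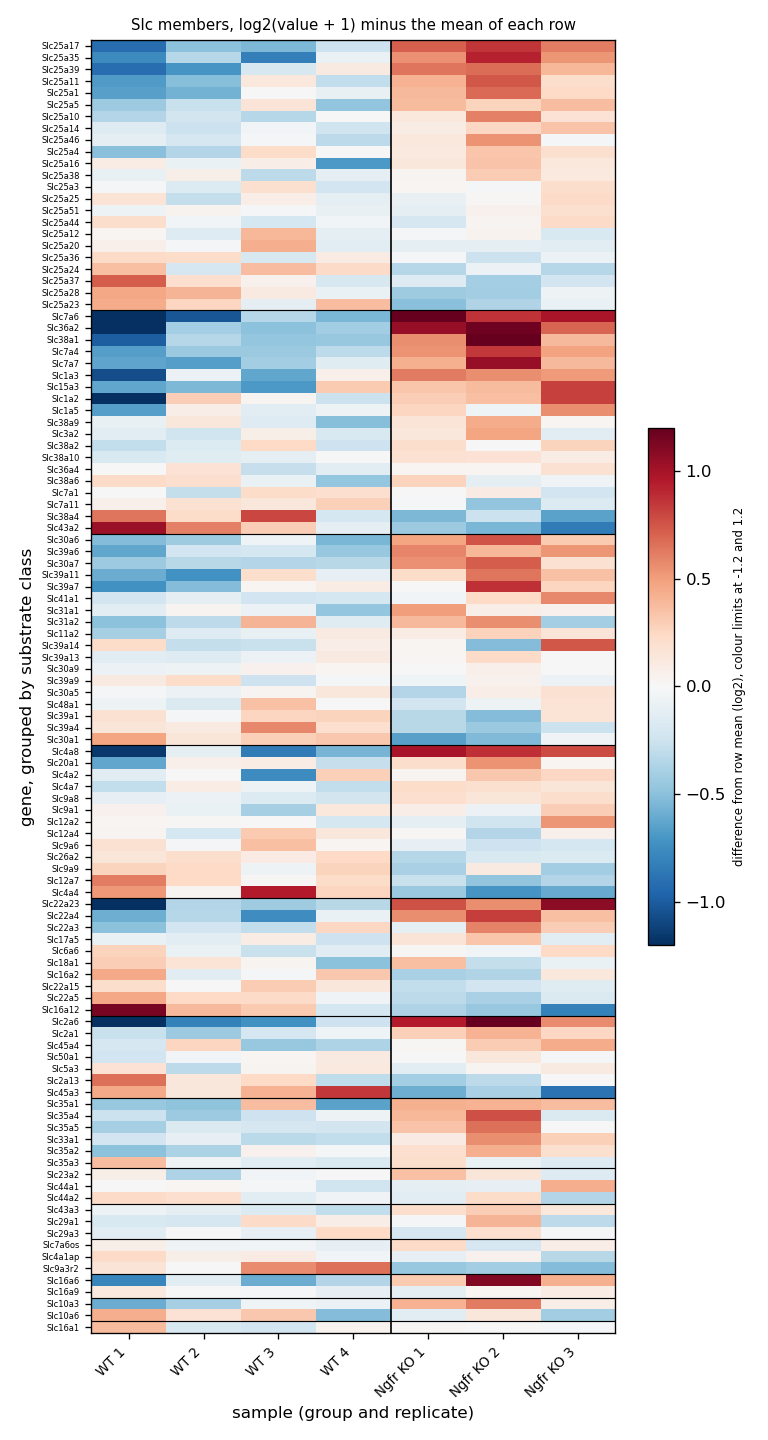
Values of 110 members in each sample as log2(value + 1) minus the mean of the gene over the 7 samples, grouped by class and ordered by change; red is above and blue below the gene's mean. Ngfr KO replicate 2 was the highest Ngfr KO sample in 53 of the 112 members and replicate 3 the lowest in 54.

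The median coefficient of variation of a member was 25.8% in WT and 20.9% in Ngfr KO. Among Ngfr KO samples, replicate 2 was highest in 53 of 112 members, replicate 3 in 35 and replicate 1 in 24. Among WT samples, replicate 3 was highest in 33 members and replicates 1 and 4 in 30 each.

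Other transporter families were counted by the same limma fit, beside 18.3% higher and 15.8% lower over all genes tested. Of 18 P-type ATPases and subunits, which pump ions or flip lipids at the cost of ATP, none rose and 7 fell. Of 27 such genes that edgeR tested, it called 1 higher and 7 lower. Among those that fell under limma were the calcium pump Atp2b4 (log2 change -0.96) and the lipid flippase Atp8a2 (-0.79). Their Ngfr KO means were 0.288 and 0.320. Both passed the filter only through WT, the group where they were high, so their falls were favoured by the selection. Of 16 subunits of the vacuolar proton pump, which acidifies lysosomes, 5 rose and 1 fell, the largest rise being Atp6v1c1 (0.98). Of 15 ATP-binding cassette transporters, 4 rose, led by the mitochondrial Abcb10 (1.16), and 2 fell, led by the cholesterol exporter Abca1 (-0.75). Among 21 carriers without an Slc symbol, 4 rose and 3 fell. The largest rise of these was in Ucp2, an inner mitochondrial membrane carrier, which averaged 3.59 ± 1.40 in WT (n = 4, SD) and 16.6 ± 6.02 in Ngfr KO (n = 3, SD; log2 change 1.95, SE 0.28, limma adjusted p = 0.000677). The sphingosine-1-phosphate exporter Spns2 had the largest fall (-0.99), and the organic anion carrier Slco1a5 was the 1 of 5 Slco genes called (1.27, higher). Slco1a5 averaged 0.268 in WT and passed the filter only through Ngfr KO, so this call was favoured by the selection.

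RefSeq promoter windows were found for 83 of the 112 members. ACGTG on either strand was present in 11 of 22 windows of members that rose, 3 of 11 of those that fell and 12 of 50 of those not called, against 19.6% of all windows. CACGTG was in 5 of 22, 2 of 11 and 5 of 50 of the same windows. The amino acid response element core TGATGNAA was in 4 of 83 member windows (4.82%) and 3.97% of all windows. The share of member windows was 59% for TGCNCNC (51% of all windows), 26.5% for the antioxidant response element TGACNNNGC (12.4%), 73.5% for the KLF motif CACCC (57.5%) and 6.02% for TGACGTG, the unfolded protein response core that contains ACGTG (2.01%). Among the 22, 11 and 50 windows of members that rose, fell or were not called, TGACNNNGC was in 4, 5 and 13. For the other motifs the numbers were 18, 9 and 34 (CACCC), 14, 7 and 28 (TGCNCNC), 2, 0 and 3 (TGACGTG) and 1, 0 and 3 (TGATGNAA). All windows cover 27025 genes, filtered by no value, while a member had 1 window. Their shares are therefore not a like baseline for the members. All these shares describe letters in a window and not binding of a factor.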

How the data were processed

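The authors deposited 1 table of TMM-scaled signal, 1 column per sample. The submitters' processing notes name bcl2fastq 2.20.0.422 and the build mm10; the aligner, counter, annotation and strand setting are not given in the sources used here. In every sample 100% of the deposited signal values were whole multiples (within 0.1 of a step) of 1 factor, so reads were recovered by division. No gene length was divided out. SMART-Seq v4 reads carry no stated molecular identifiers, so read numbers cover counting error only.

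Genes that reached a value of 1 in 3 or more samples were fitted with limma 3.58.1 (lmFit, eBayes with trend, log2(value + 1), no covariates) in R 4.3.3 and called at a Benjamini-Hochberg adjusted p under 0.05 over 8326 genes. Ngfr failed the filter and was added to the same fit (8327 genes). Alternatives were edgeR 4.0.16 and DESeq2 1.42.0 on recovered reads, pseudocounts of 0.1 and 5, no filter, a minimum of 10, quantile and median ratio scaling, thinned reads, the replicate number as a block, and each sample left out. Scripts were tested on simulated data.

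The members and lists were chosen with earlier results of these data known. Named members are, per class, the 3 with the largest change in each direction among called members without overlap between groups, the highest per kb of exon (GENCODE M21), the 2 nearest each side of the filter, and partners of Slc3a2 and Bsg. Other named genes, the E-box and unfolded protein response motifs and the promoters shown were chosen after values were seen. Some members counted here are not reported here by name, and the heat map shows 110 of the 112.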

Additional observations from a re-analysis of the deposited data

Results flagged for a closer look

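In 8 of 112 members, 1 WT sample stood apart from the other 3 by Dixon's ratio of gap to range, where chance gives about 1 in 20. WT replicate 1 was low for Slc36a2 (ratio 0.901, value 5.02 against 11.9 to 12.6) and Slc22a23 (ratio 0.878, 0.755 against 2.21 to 2.41). WT replicate 4 was high for Slc15a3 (ratio 0.890, 3.07 against 1.03 to 1.25) and low for Slc12a2 (ratio 0.849, 0.774 against 1.04 to 1.09) and Slc44a1 (ratio 0.855, 2.45 against 3.05 to 3.15). WT replicate 3 was high for Slc35a1 (ratio 0.865, 8.33 against 3.60 to 4.24) and low for Slc9a9 (ratio 0.888, 2.41 against 3.19 to 3.29). WT replicate 2 was high for Slc41a1 (ratio 0.856, 3.34 against 2.98 to 3.04). The 3 Ngfr KO samples are too few for this ratio.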

How the results depend on the processing

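Of 709 log2 changes of 44 named members over 17 alternatives, 637 kept direction and side of the threshold, 57 kept direction and lost the call, 1 gained it and 14 reversed. All reversals were in members not called. Slc16a1 became 0.0393 with DESeq2, 0.0384 with edgeR, 0.0521 with median ratio scaling, 0.00609 with the replicate block, 0.119 without WT replicate 1 and 0.00609 without WT replicate 4 (range with 1 sample left out -0.0844 to 0.119). Slc16a9 became -0.0504 with quantile normalization, -0.0298 with the block, -0.00751 without Ngfr KO replicate 2, -0.0431 without Ngfr KO replicate 3, -0.00444 without WT replicate 3 and -0.0298 without WT replicate 4 (range -0.0431 to 0.0569). Slc50a1 became -0.0552 with quantile normalization and Slc44a1 -0.0498 without Ngfr KO replicate 3 (range -0.0498 to 0.228); the cause was not tested. With no filter, 25 members were called, 19 higher and 6 lower, and with a minimum value of 10 in 3 samples 3 were called, all higher and 0 lower, where only 9 members were tested. Leaving out 1 sample gave 29 to 47 called members, 19 to 32 higher and 7 to 15 lower. Ngfr's fall did not pass with no filter (-0.52) or with edgeR (-1.55). Same-number correlations of deviations were 0.298, -0.0593 and -0.0108, and those of different numbers ran from -0.2 to 0.111. The value of 0.298 was the highest of all pairs. So few values cannot decide whether the replicate numbers pair the samples. With the replicate block, 46 members were called, 32 higher and 14 lower, 41 of them shared with the reported calls. Only WT has a replicate 4, so that sample has no weight in the block comparison. The block's log2 changes therefore equal those without WT replicate 4, and its reversals are not separate ones. All Ngfr KO libraries were deeper than all WT libraries; with reads thinned to the smallest total, 46 members were called.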
